A study of Mus musculus with 8 samples.

Results

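Phase II conjugation enzymes attach a polar group to drugs, hormones, bilirubin and bile acids so that bile or urine can carry them away. They were taken here as the gene entries named as soluble glutathione transferases (Gst of the alpha, kappa, mu, omega, pi, theta and zeta classes), UDP-glycosyltransferases (Ugt) or sulfotransferases (Sult). That rule uses gene names alone and found 64 of the 25078 genes in the deposited count table, of which 22 were glutathione, 21 glucuronosyl and 21 sulfo transferases. Glutathione transferases join the tripeptide glutathione to reactive compounds, glucuronosyl transferases use UDP-glucuronic acid, and sulfotransferases use the activated sulfate PAPS. The glucuronosyl group here takes every Ugt gene, so its counts and sums include genes such as Ugt3a2 and Ugt8a, whose enzymes transfer other sugars. Liver parenchymal cells are the main site of these reactions in mammals, and several of the genes are known in the mouse for expression that differs between the sexes or along the liver lobule.

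RNA was sequenced from 8 liver samples of male C57/BL6 mice, 5 labelled wild type and 3 labelled Midn hemizygotes, which the sample titles call Het and which are called het-labelled below. By the labels all had the same diet, high in fat, fructose and cholesterol, for 25 weeks. Heterozygotes of a global knockout were used because few homozygous knockouts survived embryonic life, per the series' design text, which puts the question of midnolin's role in fatty liver disease. The sources used here give no age, litter or batch, and no group on an ordinary diet was analysed. Nothing in the labels says outright that the libraries came from separate animals, although each title carries its own number, so a p-value speaks of the spread among these 8 libraries, which may be technical.

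Library totals ran from 17508221 to 24916239 counts. Midn, the targeted gene, did not separate the labels: it measured 68.7, 39.8, 71.5, 41.7 and 29.3 CPM (counts brought to a common library size with TMM factors) in wild-type libraries 1 to 5 and 60.4, 39.1 and 51.7 in het-labelled libraries 1 to 3. The edgeR log2 fold change of Midn was 0.00, with SE 0.30 and an adjusted p of 0.994. Whether its reads lie in the deleted sequence is not known from the sources used here, so each direction below refers to the label. The wild-type libraries stood in 2 sets by Rpph1, the RNA of ribonuclease P, which lacks a poly(A) tail. It took 0.331% and 0.304% of counts in libraries 1 and 3 and 0.673% to 1.06% in libraries 2, 4 and 5, against 0.229% to 0.399% in the het-labelled ones. Of the 47 conjugation genes tested below, 23 had fold changes that differed by more than 1.5 times between these sets and 16 had opposite signs against them. Among the 14 with an unadjusted p under 0.05 over all libraries, these numbers were 3 (Sult5a1, Sult2a7 and Sult2a8) and 0. The 14 were picked by a p over these same libraries, which favours genes with the same sign against both sets. The 0 is therefore no separate support for them. Hepatocyte markers were present throughout, with a summed level of 58100 to 72700 CPM in wild-type and 63800 to 101000 CPM in het-labelled livers and 1 of 10 higher by an unadjusted p. Bile duct markers summed to 421 to 934 and 166 to 767 CPM, with 0 of 7 past it, but all 7 had a negative log2 fold change, with a median of -0.93. The 6 T and NK cell markers and the 4 B cell markers were also all negative, with medians of -0.85 and -0.65. Against wild-type libraries 1 and 3 alone, 4 bile duct markers and 5 T and NK cell markers were lower by an unadjusted p, as were 14.9% of all genes. Against libraries 2, 4 and 5 these numbers were 0 and 1, beside 18.7% of all genes. There 1 bile duct marker was higher, also at an adjusted p under 0.05, beside 8.4% of all genes. The part of these cells in the values below was not tested. Markers of Kupffer cells, T and NK cells, B cells, stellate and endothelial cells were tested in 8, 6, 4, 6 and 6 genes. With an unadjusted p under 0.05, 0, 0, 0, 0 and 1 of these were higher in het-labelled livers and 0, 1, 1, 0 and 0 lower. Of all genes, 10.3% were higher and 5.43% lower. In whole liver, fewer cells of a type and less RNA per cell cannot be told apart.

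Liver expression of the conjugation genes was held by a few of them. Levels of different genes are compared here as RPKM, which divides by exon length. Gstm1, Gsta3 and Gstp1 averaged 912, 712 and 361 RPKM over the 8 libraries and made up 65.2% of the summed RPKM of the glutathione transferases. Ugt2b5, Ugt2b36 and Ugt2b1, which conjugate steroids and bile acids, averaged 670.3, 565 and 295 RPKM and held 65.5% of the glucuronosyl total. Sult1a1, the phenol sulfotransferase, Sult1d1, which takes catecholamines, and Sult2a8, which sulfates bile acids, averaged 175, 147 and 115 RPKM. They held 90.0% of the sulfotransferase total, the most concentrated of the 3 families.

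A summed count below 10 over all 8 libraries was found for 13 of the 64 genes, 10 of them sulfotransferases. They were the theta class gene Gstt4, the glucuronosyl transferases Ugt2a1 and Ugt2a2, and the sulfotransferases Sult1c1, Sult2a1, Sult2a3, Sult2a4, Sult2a5, Sult2a6, Sult3a1, Sult3a2, Sult6b1 and Sult6b2. No count at all was recorded for 5 of these, namely Ugt2a2, Sult2a4, Sult2a5, Sult2a6 and Sult3a2. The counting mode is not known, so reads from shared sequence could be dropped. In GENCODE, 98.8% and 94.5% of the exon bases of Ugt2a1 and Ugt2a2 overlap other annotated genes. Stretches of 50 bases found in another gene made up 33.2% of Sult2a1, 25.5% of Sult2a4 and 34.5% of Sult2a5. They made up 6.15% to 8.36% of Sult2a3, Sult2a6, Sult3a1 and Sult3a2, and 0.0% of Gstt4, Sult1c1, Sult6b1 and Sult6b2. The filter on low counts left 47 genes for testing, 20 glutathione, 19 glucuronosyl and 8 sulfo transferases. Gsto2, Sult2a2, Sult2b1 and Sult4a1 had summed counts of 13, 20, 41 and 23 and were not tested either. At the edge of the filter, the lowest summed counts tested were 459 for Gstp2, 83 for Ugt1a10 and 226 for Sult2a7. The highest left out were 13 for Gsto2, 2 for Ugt2a1 and 41 for Sult2b1. Sult2a1, Sult2a2 and Sult3a1 are known as genes of female mouse liver, and all the animals here were male. Sult1a1 is also known as female-biased, yet it averaged 175 RPKM over the 8 libraries. The parts of sex and of shared sequence in the low counts were not tested.

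Summed over each family, glutathione transferases measured 3736 ± 728 CPM (SD, n = 5) in wild-type and 4985 ± 723 (SD, n = 3) in het-labelled livers. The lowest het-labelled value, 4501, lay just above the highest wild-type value, 4492. As a share of all counts, without TMM, the groups overlapped, at 0.308% to 0.444% and 0.392% to 0.495%. Sulfotransferases measured 829 ± 478 against 1145 ± 352 CPM, and the groups overlapped. Glucuronosyl transferases measured 5406 ± 2840 against 5320 ± 601 CPM. Their wild-type values covered the whole het-labelled range of 4706 to 5908, from 2167 in library 3 to 9049 in library 5.

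Between the genotypes, edgeR's quasi-likelihood test called 0 of 14438 genes (0.0%) at an adjusted p under 0.05, and so 0 of the 47 conjugation genes. At an unadjusted p under 0.05, 13 of the 47 (27.7%) were higher in het-labelled livers, where 1487 of all genes (10.3%) were. Lower at that level was 1 (2.13%), Gsta2, against 784 of all genes (5.43%). The other 33 were not past it. By family, 6 glutathione transferases were higher and 1 lower, 4 glucuronosyl transferases were higher and 3 sulfotransferases were higher. The median log2 fold change of the 47 was 0.25, where that of all genes was 0.00. With library size alone as the scaling, the median of all genes moved to -0.18 and that of the conjugation genes to 0.05. DESeq2 called 100 genes higher (0.694%) and 76 lower (0.528%) at an adjusted p under 0.05. Among the former were Sult5a1 and Ugt1a1, and 0 conjugation genes were among the latter. In 10 of the 47 (21.3%) every het-labelled CPM value lay above every wild-type value, as for 7.54% of all genes, and in 0 every value lay below, as for 2.32%. Sult2a7 had 10 or more counts in fewer than 3 wild-type libraries and so passed the filter through the het-labelled group. Without it the higher genes were 12 of 46. Against wild-type libraries 1 and 3, 26 conjugation genes were higher by an unadjusted p and 4 lower of 48 tested, beside 16.7% and 14.9% of all genes. Against libraries 2, 4 and 5, 11 were higher and 9 lower of 47, beside 18.8% and 18.7% of all genes. The plot of fold changes by family shows the spread in each.

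**Figure D1:**
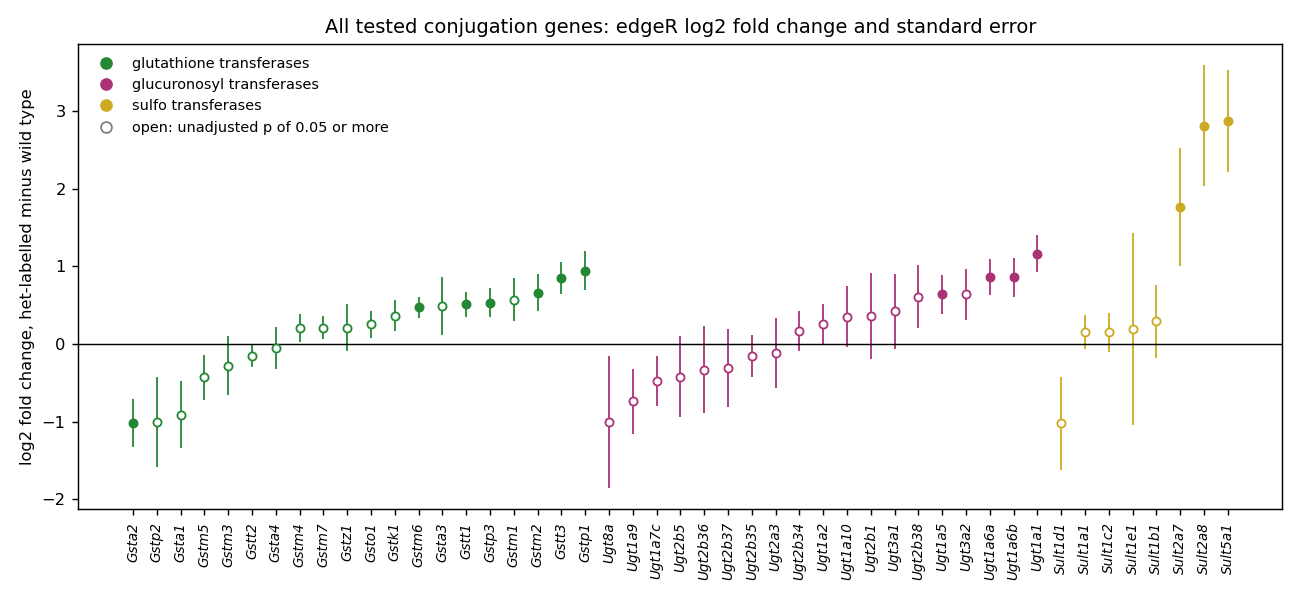
Log2 fold change (het-labelled minus wild type, y axis) with its standard error from edgeR for each of the 47 tested conjugation genes, ordered within family along the x axis and coloured by family; filled points have an unadjusted p under 0.05. Filled points lie above 0 except that of Gsta2 at -1.02, and the sulfotransferases reach furthest up, to 2.87.

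The Ugt1 locus on chromosome 1 (88055411 to 88220002, forward strand, mm10) makes its enzymes from alternative first exons spliced to a common set of downstream exons. Of its 8 genes, 4 had an unadjusted p under 0.05, each of them higher in het-labelled livers. Of all genes, 10.3% were higher and 5.43% lower. The 4 share the downstream exons, and Ugt1a6a and Ugt1a6b are near copies, so they are not independent of each other. The first exons have promoters of their own. The 250 bases before the RefSeq gene start (assembly GRCm38.p6, the mm10 build) are given for Ugt1a1, which leads the locus, for Ugt1a6a, which was higher with it, and for Ugt1a9, whose fold change had the other sign. They lie on the forward strand at chr1:88211709-88211958, chr1:88134559-88134808 and chr1:88070529-88070778. Capitals mark the letters of a STAT site (TTCNNNGAA) or a nuclear receptor motif (AGGTCA), read on either strand.
Ugt1a1: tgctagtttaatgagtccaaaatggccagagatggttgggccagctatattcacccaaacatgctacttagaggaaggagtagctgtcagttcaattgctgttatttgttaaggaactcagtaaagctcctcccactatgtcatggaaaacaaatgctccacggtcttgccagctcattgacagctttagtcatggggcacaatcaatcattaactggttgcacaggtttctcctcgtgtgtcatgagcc
Ugt1a6a: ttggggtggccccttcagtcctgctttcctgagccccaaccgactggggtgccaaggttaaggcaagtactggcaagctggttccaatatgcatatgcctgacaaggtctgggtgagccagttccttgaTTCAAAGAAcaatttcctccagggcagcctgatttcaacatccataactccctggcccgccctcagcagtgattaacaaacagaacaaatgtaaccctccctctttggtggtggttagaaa
Ugt1a9: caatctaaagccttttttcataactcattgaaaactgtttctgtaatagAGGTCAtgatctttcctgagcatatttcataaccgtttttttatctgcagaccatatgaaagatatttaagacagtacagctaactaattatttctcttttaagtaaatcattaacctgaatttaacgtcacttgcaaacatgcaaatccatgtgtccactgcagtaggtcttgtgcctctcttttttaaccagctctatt
Ugt1a6a held the STAT letters, which ended 112 bases before the gene start, and Ugt1a9 the nuclear receptor motif, which ended 195 bases before it. Ugt1a1 held none of the 7 motifs searched, which says only that these letters are not in its window. A match describes the letters and is no evidence of binding.

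Ugt1a1, the enzyme that glucuronidates bilirubin, measured 85.1, 43.6, 57.15, 89.6 and 71.2 CPM in the wild-type libraries and 169.9, 126 and 168 CPM in the het-labelled ones. The groups did not overlap, and their means were 69.3 ± 19.2 (SD, n = 5) and 155 ± 24.8 (SD, n = 3). The log2 fold change was 1.16 (SE 0.24, edgeR unadjusted p = 0.00089, adjusted p = 0.259, DESeq2 adjusted p = 0.0112). Ugt1a6a and Ugt1a6b, which conjugate simple phenols, each had a log2 fold change of 0.86, with standard errors of 0.23 and 0.25 and unadjusted p-values of 0.00515 and 0.0078. Ugt1a6a measured 20.6 to 42.85 CPM in wild-type and 51.8 to 67.3 CPM in het-labelled livers, and Ugt1a6b 22.05 to 48.4 and 50.9 to 76.1 CPM, with no overlap for either. Ugt1a5 was 0.64 higher on the log2 scale (SE 0.25, unadjusted p = 0.0288), with overlapping groups.

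The other Ugt1 genes were not past that threshold. Ugt1a9, which also takes phenols, measured 31.7, 45.1, 18.6, 14.55 and 18.2 CPM in wild-type and 11.5, 11.0 and 23.6 CPM in het-labelled livers, and its log2 fold change was -0.74 (SE 0.42, unadjusted p = 0.115). Ugt1a7c had -0.48, Ugt1a2 0.25 and Ugt1a10 0.35. Against wild-type libraries 2, 4 and 5 alone, Ugt1a1, Ugt1a6a and Ugt1a6b passed at an adjusted p under 0.05, as did Gstp1 and 8.4% of all genes in that direction. At 4 of 47 the share of conjugation genes was near that of all genes. Their log2 fold changes there were 1.14, 0.94 and 0.99. Against wild-type libraries 1 and 3 they were 1.06, 0.62 and 0.58, with adjusted p-values of 0.0672, 0.0804 and 0.129, where 0.0956% of all genes passed as higher and 0.0478% as lower.

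The make-up of the locus, as counted, was also compared. Shares of Ugt1a2, Ugt1a5, Ugt1a6a, Ugt1a6b and Ugt1a10 overlapped between the groups. Ugt1a1 took 36.2%, 28.7%, 35.7%, 41.9% and 41.7% of the counts given to the 8 genes in wild-type libraries 1 to 5, and 47.6%, 48.6% and 46.8% in the het-labelled ones. The nearest values were 41.9% (95% Wilson interval 40.4 to 43.5) in wild-type library 4 and 46.8% (45.7 to 47.9) in het-labelled library 3. Intervals of this kind cover counting error only. Ugt1a9 took 6.81% to 29.7% in wild-type and 3.23%, 4.22% and 6.58% in het-labelled livers, and Ugt1a7c 1.16% to 2.27% against 0.65% to 0.849%. All 3 shares, parts of 1 total and so not independent, were apart between the groups, each with the smallest two-sided p an exact permutation test over the 56 assignments can give, 0.0357, or 0.0892 after Benjamini-Hochberg adjustment over the 15 shares compared. The plot of locus make-up shows this by library. Reads that fall in the common exons could be divided among the genes or dropped, and the counting mode is not known from the labels. In the GENCODE annotation of mm10, 82.7% of the exon bases of Ugt1a1 and 50.3% to 64.3% of those of the others overlap exons of another annotated gene there, Gm20528 and Ugt1a8 included. Ugt1a6a and Ugt1a6b are also near copies, since 79.6% of the 50-base words of Ugt1a6b occur in Ugt1a6a, so the 2 cannot be counted as separate results.

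**Figure D2:**
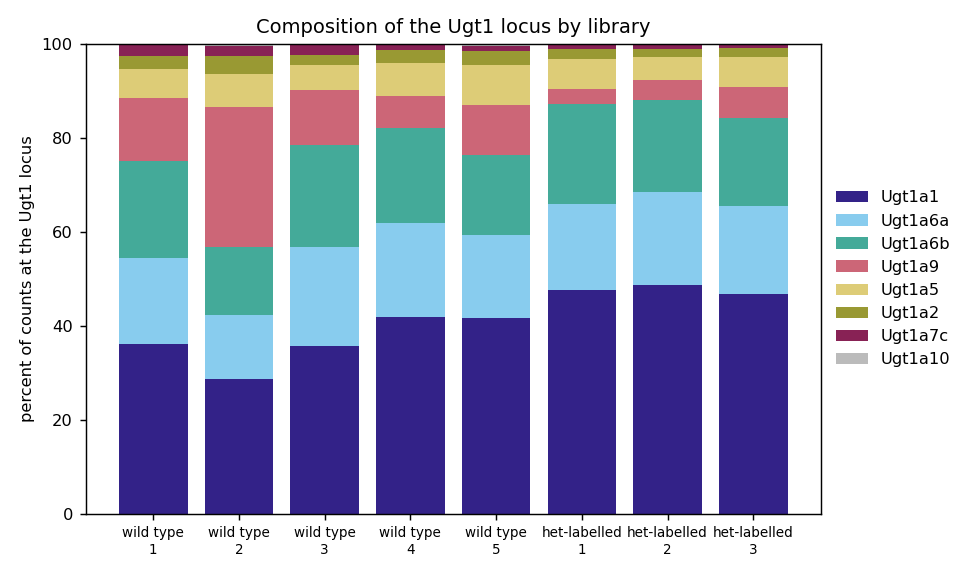
Percent of the counts at the Ugt1 locus (y axis) given to each of its 8 genes (colours) in each library (x axis). Ugt1a1 takes 46.8% to 48.6% in the het-labelled libraries and 28.7% to 41.9% in wild type, while Ugt1a9 takes less in each het-labelled library than in any wild-type one.

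A second cluster, on chromosome 5 (86889770 to 87591611), holds the Ugt2 genes and, beside them, Sult1b1, Sult1d1 and Sult1e1. Of its 13 genes 11 were tested, and 0 were higher or lower at an unadjusted p under 0.05, beside 10.3% and 5.43% of all genes. Here the wild-type livers lay on both sides of the het-labelled ones. Ugt2b5 measured 662, 1555, 458, 1870 and 2686 CPM in wild-type libraries 1 to 5 and 967, 1081 and 1200 CPM in the het-labelled ones. Libraries 1 and 3, those low in Rpph1, were below every het-labelled value, and libraries 2, 4 and 5 were above every one. Its log2 fold change over all 8 libraries was -0.42 (SE 0.52, unadjusted p = 0.446). Ugt2b36, the next in level, had the same pattern, with 489 and 351 CPM in wild-type libraries 1 and 3, 1180 to 2281 in libraries 2, 4 and 5 and 833 to 1074 in the het-labelled ones. Its log2 fold change was -0.33 (SE 0.56).

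Against wild-type libraries 1 and 3, the median log2 fold change of the 11 genes was 0.94. Of these, 9 had an unadjusted p under 0.05, all of them higher in het-labelled livers, as were 16.7% of all genes. The lowest adjusted p was 0.0672, for Ugt2b36 and for Sult1b1, which sulfates thyroid hormone. Against libraries 2, 4 and 5, the median was -0.50, with 0 higher and 6 lower by an unadjusted p, beside 18.8% and 18.7% of all genes. Ugt2b5, Ugt2b36, Ugt2b37 and Sult1d1 passed there at an adjusted p under 0.05 as lower, in a comparison that called 10.5% of all genes in that direction. These were 4 of the 47 conjugation genes, a share near that of all genes. The direction for these genes therefore turned with the wild-type libraries chosen. Rpph1 moves with this split, and its part was not tested. In the plot of the cluster by library, wild-type libraries 1 and 3 lie below the other wild-type libraries for each of the 11 genes.

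**Figure D3:**
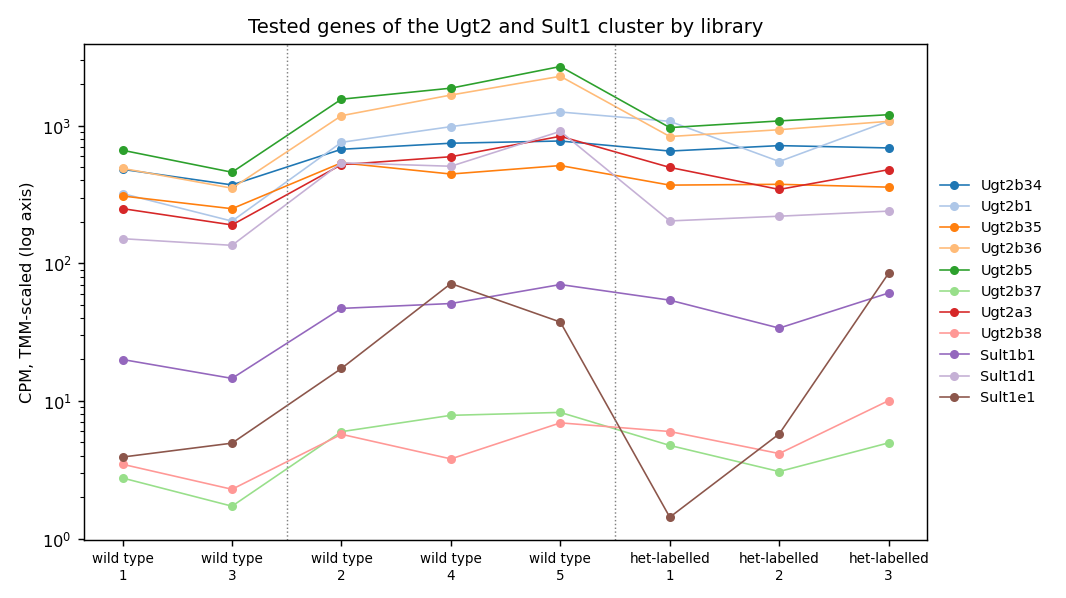
CPM on a log axis (y axis) of the 11 tested genes of the chromosome 5 cluster in each library (x axis), with wild-type libraries 1 and 3, wild-type libraries 2, 4 and 5 and the het-labelled libraries set apart by dotted lines; lines join the values of 1 gene and imply no order. Ugt2b5 runs from 458 to 662 CPM in the first set, 1555 to 2686 in the second and 967 to 1200 in the third, and Sult1e1 from 1.43 to 84.7 CPM within the het-labelled libraries.

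Ugt2b1, known to be higher in male mouse liver, measured 202 to 1255 CPM in wild-type and 548 to 1079 CPM in het-labelled livers (log2 fold change 0.36, SE 0.55). Ugt2b38, another male-biased member, had 0.61 (SE 0.40, unadjusted p = 0.158), and 34.1% of its 50-base words occur in Ugt2b5, so counts of those 2 could be mixed. Sult1d1 measured 151, 537, 135, 506.5 and 908 CPM in wild-type libraries 1 to 5 and 203, 219.6 and 239 CPM in the het-labelled ones, with a log2 fold change of -1.02 (SE 0.60, unadjusted p = 0.121). Sult1e1, the estrogen sulfotransferase, varied the most among the cluster's genes within a group. It ran from 3.91 to 71.2 CPM in wild-type livers and measured 1.43, 5.76 and 84.7 CPM in the het-labelled ones, a 59.3-fold range, so its log2 fold change of 0.19 had a standard error of 1.24. Outside the cluster, Ugt3a2, whose enzyme transfers sugars other than glucuronic acid, had 0.64 (SE 0.33, unadjusted p = 0.0847), or 1.27 and 0.26 against the 2 wild-type sets. Ugt8a, which makes galactosylceramide, had -1.01 (SE 0.85).

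Sulfotransferases gave the widest fold changes among the conjugation genes. The letters before the gene start of Sult5a1 and of Sult2a8 are shown because these 2 genes carry them. Sult5a1 lies at 123142847 to 123158280 on the reverse strand of chromosome 8, and its window is chr8:123158281-123158530. Sult2a8 lies at 14410686 to 14446587 on the reverse strand of chromosome 7 and has a distal start with the window chr7:14446588-14446837 and a proximal one with chr7:14438552-14438801. The sequences read 5′ to 3′ along the gene's strand, from RefSeq on GRCm38.p6, and capitals mark a TATA box (TATAAA) or a nuclear receptor motif (AGGTCA) on either strand.
Sult5a1: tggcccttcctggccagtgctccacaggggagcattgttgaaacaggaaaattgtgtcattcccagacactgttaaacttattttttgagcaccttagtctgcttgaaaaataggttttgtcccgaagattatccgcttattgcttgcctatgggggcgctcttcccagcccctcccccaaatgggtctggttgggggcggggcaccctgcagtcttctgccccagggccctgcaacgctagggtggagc
Sult2a8 distal: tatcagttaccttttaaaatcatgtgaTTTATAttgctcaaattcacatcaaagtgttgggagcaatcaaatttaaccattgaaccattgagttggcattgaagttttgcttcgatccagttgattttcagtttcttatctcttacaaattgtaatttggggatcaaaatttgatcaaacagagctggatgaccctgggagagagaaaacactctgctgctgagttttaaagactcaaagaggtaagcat
Sult2a8 proximal: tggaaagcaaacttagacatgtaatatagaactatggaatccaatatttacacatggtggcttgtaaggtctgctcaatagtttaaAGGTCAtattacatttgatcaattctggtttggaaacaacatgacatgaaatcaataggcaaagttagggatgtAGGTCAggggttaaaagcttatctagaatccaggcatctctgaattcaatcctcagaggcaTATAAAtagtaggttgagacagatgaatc
The proximal window of Sult2a8 had a TATA box that ended 23 bases before the start and a pair of nuclear receptor motifs that ended 158 and 84 bases before it. In the distal window the TATA letters lay on the other strand, 217 bases from the start. The Sult5a1 window held none of the 7 motifs. The deposited counts are per gene and do not say which Sult2a8 start was used.

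Sult5a1, a sulfotransferase whose natural substrate is little known, measured 1.11, 0.67, 0.56, 4.28 and 1.14 CPM in the wild-type libraries and 16.45, 4.57 and 12.8 CPM in the het-labelled ones. Every het-labelled value was above every wild-type one, by little for het-labelled library 2 against wild-type library 4. The log2 fold change was 2.87 (SE 0.66, edgeR unadjusted p = 0.00182, adjusted p = 0.259, DESeq2 adjusted p = 0.00647). Without wild-type library 4 it was 3.70, and without het-labelled library 1 it was 2.50. Against wild-type libraries 1 and 3 it was also 3.70, and against libraries 2, 4 and 5 it was 2.42. Its counts are few, 860 in all, and 1.13% of its 50-base words occur in another gene.

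Sult2a8, which sulfates bile acids in mouse liver, measured 42.8, 36.0, 11.7, 114 and 205 CPM in the wild-type libraries and 839.7, 268 and 621 CPM in the het-labelled ones. The means were 82.0 ± 78.7 (SD, n = 5) and 576 ± 288 (SD, n = 3), with no overlap. The log2 fold change was 2.81 (SE 0.78, edgeR unadjusted p = 0.00563, adjusted p = 0.259, DESeq2 adjusted p = 0.086). Against wild-type libraries 1 and 3 it was 4.34 and against libraries 2, 4 and 5 it was 2.23, a difference of more than 1.5 times in fold that follows the wild-type split. Its neighbour Sult2a7 measured 0.11 to 2.23 CPM in wild-type and 1.83, 2.67 and 3.09 CPM in het-labelled livers, with a log2 fold change of 1.76 (SE 0.76, unadjusted p = 0.0444). Its raw counts were 6, 7, 3, 16 and 37 in wild-type and 67, 34 and 56 in het-labelled livers, so it was tested only because of the group where it is high. The log2 fold change was 3.67 against wild-type libraries 1 and 3 and 1.09 against libraries 2, 4 and 5. Sult2a7 and Sult2a8 were the tested genes of the 8 in the Sult2a cluster. For Sult2a7 the unadjusted p stayed under 0.05 in 1 of the 8 fits that left out a library.

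As a share of all sulfotransferase counts, Sult2a8 took 10.4%, 3.95%, 3.54%, 11.7% and 13.6% in wild-type libraries 1 to 5 and 60.0%, 36.1% and 48.1% in the het-labelled ones. The difference had an exact permutation p of 0.0357 (adjusted 0.0892). Sult1d1 took 36.5% to 60.2% against 14.5% to 29.6%. Its share has the same total as that of Sult2a8 and so is no separate result. In CPM, Sult1d1 in wild-type libraries 1 and 3 lay below every het-labelled value. The sulfotransferase with the most counts was Sult2a8 in all 3 het-labelled livers, Sult1a1 in wild-type libraries 1 and 3, and Sult1d1 in wild-type libraries 2, 4 and 5. Sult1a1 had a log2 fold change of 0.15 (SE 0.22) and a share of 18.2% to 47.5% in wild-type and 19.4% to 27.0% in het-labelled livers, which overlapped. Sult1b1 and Sult1c2 had 0.29 (SE 0.47) and 0.15 (SE 0.25). Male-biased liver genes, a list of 8 that includes none of these enzymes, summed to 610 to 1070 CPM in wild-type and 1430 to 3190 CPM in het-labelled livers. At an unadjusted p under 0.05, 6 of 8 were higher, beside 10.3% of all genes. Of the 5 female-biased genes tested, 0 were higher and 3 lower, beside 5.43% of all genes lower. Both lists were chosen with earlier results of these data known. The part of these sex-biased differences in the sulfotransferase values was not tested.

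**Figure D4:**
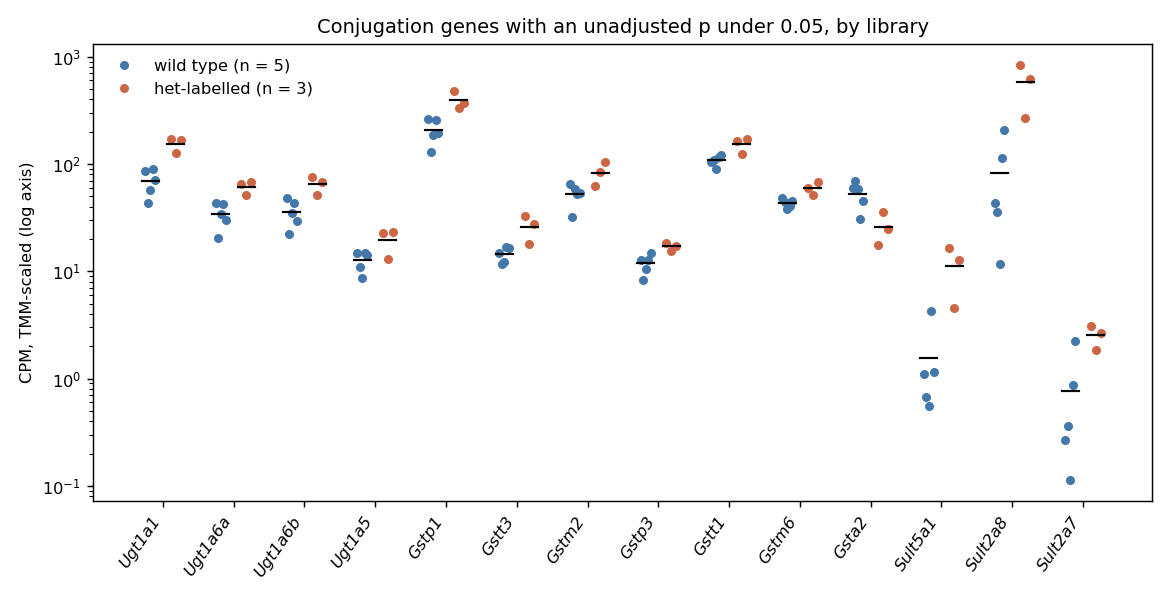
CPM on a log axis (y axis) of the 14 conjugation genes with an unadjusted p under 0.05 (x axis) in 5 wild-type (blue) and 3 het-labelled (red) livers; bars are group means. The het-labelled points of Sult2a8, 268 to 839.7 CPM, lie above the wild-type points, 11.7 to 205 CPM, while those of Gsta2 lie lower with overlap.

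Glutathione transferases showed smaller differences. Of the 20 tested, 6 (30.0%) were higher and 1 (5.0%) lower by an unadjusted p under 0.05, beside 10.3% and 5.43% of all genes. DESeq2 called 0 of the 20. The pi class enzyme Gstp1, known as a male-biased form of mouse liver, measured 261.5, 130.2, 186, 254.5 and 195 CPM in wild-type and 479.8, 333 and 373.5 CPM in het-labelled livers. The groups did not overlap, and the log2 fold change was 0.94 (SE 0.25, unadjusted p = 0.00388, adjusted p = 0.259). Its near copy Gstp2, also known as male-biased, had the opposite sign, -1.01 (SE 0.58, unadjusted p = 0.114). It measured 0.90 to 5.25 CPM in wild-type and 1.11 to 1.99 CPM in het-labelled livers. Since 49.1% of the 50-base words of Gstp2 occur in Gstp1, reads of the pair may be mixed. Gstp3, which has no such words in another gene, had 0.53 (SE 0.19, unadjusted p = 0.0225), and its groups were apart.

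In the theta class, whose enzymes take small halogenated compounds, Gstt3 had 0.85 (SE 0.21, unadjusted p = 0.0031) and Gstt1 0.51 (SE 0.16, unadjusted p = 0.0112), both without overlap. Gstt1 measured 90.1 to 120.0 CPM in wild-type and 124 to 171 CPM in het-labelled livers, and Gstt3 11.8 to 16.75 against 17.8 to 32.5 CPM. Gstt2 had -0.16 (SE 0.14). Part of Gstt3, 13.6% of its exon bases, overlaps another annotated gene, Gm20441.

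The mu class cluster on chromosome 3 (107895854 to 108044859) had 2 higher of 7 (28.6%), beside 10.3% of all genes. They were Gstm2 with 0.66 (SE 0.24, unadjusted p = 0.0217) and Gstm6 with 0.47 (SE 0.14, unadjusted p = 0.0084). Gstm6 measured 37.7 to 47.9 CPM in wild-type and 51.5 to 68.3 CPM in het-labelled livers, without overlap. Gstm1, the conjugation gene with the highest mean RPKM, measured 1360, 630.3, 1074, 1135 and 931 CPM in wild-type and 1174, 1360 and 2028 CPM in het-labelled livers. Its log2 fold change was 0.57 (SE 0.28, unadjusted p = 0.0761). Gstm3 measured 396, 201, 343, 219.8 and 236 CPM in wild-type and 101, 322 and 267 CPM in het-labelled livers, which overlapped widely. Its log2 fold change of -0.28 (SE 0.38, unadjusted p = 0.483) became 0.08 without het-labelled library 1. Of the counts in the 7 mu class genes, Gstm3 took 14.4% to 21.8% in wild-type and 6.88%, 17.1% and 10.5% in het-labelled livers, with overlap. Gstm2 took 3.27% to 4.02% against 4.07% to 4.43%, apart by a small margin (exact permutation p = 0.0357, adjusted 0.0892). Words of 50 bases found in another gene made up 28.8% of Gstm3 and 18.9% of Gstm1, the closest being the predicted gene Gm8834 and the pseudogene Gstm2-ps1.

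Of the 4 alpha class genes, Gsta2 was lower by an unadjusted p and the other 3 were not past it. On chromosome 9 (78191966 to 78347145) Gsta1, Gsta2 and Gsta4 had log2 fold changes of -0.91, -1.02 and -0.05. Gsta2 measured 59.9, 70.0, 57.9, 30.75 and 44.85 CPM in wild-type and 17.5, 35.8 and 24.7 CPM in het-labelled livers. Het-labelled library 2 lay above wild-type library 4, so the groups overlapped (SE 0.31, unadjusted p = 0.00909, adjusted p = 0.259). Gsta1 and Gsta2 share sequence, with 36.0% of the 50-base words of Gsta2 found in Gsta1, and 90.5% of those of Gsta1 occur in another gene. Gsta3, which lies elsewhere, had 0.49 (SE 0.37, unadjusted p = 0.216), with 497 to 1656 CPM in wild-type and 1358 to 1572 CPM in het-labelled livers. It was 1.09 against wild-type libraries 1 and 3 and 0.13 against libraries 2, 4 and 5. Gstz1, an enzyme of tyrosine breakdown, had 0.21 (SE 0.30), and the mitochondrial and peroxisomal Gstk1 0.36 (SE 0.20).

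Markers of pericentral hepatocytes, the cells around the central vein where many conjugation enzymes are known to be strongest, were also higher. All 8 were higher at an unadjusted p under 0.05, where 10.3% of all genes were higher and 5.43% lower. These markers, like the other lists, were chosen with earlier results of these data known. Their summed level was 1940 to 3770 CPM in wild-type and 6740 to 10700 CPM in het-labelled livers. Of the 7 periportal markers tested, 1 was higher and 0 lower, with sums of 27500 to 34800 and 31400 to 57700 CPM. The part of this in the conjugation genes was not tested.

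Genes that supply or complete conjugation were counted the same way, beside 10.3% of all genes higher and 5.43% lower. The shares higher for PAPS supply (14.3%) and glutathione supply (15.4%) were near that of all genes. For UDP-glucuronic acid supply 0 of 4 were past an unadjusted p of 0.05, Ugdh, which makes the cofactor, being nearest with -0.40 (SE 0.23). For PAPS supply 1 of 7 was higher, Bpnt1, which clears the spent cofactor, with 0.53 (SE 0.20). For glutathione supply 2 of 13 were higher, Oplah (0.44, SE 0.15) and Gclc, the rate-limiting enzyme of glutathione synthesis (0.46, SE 0.19), and 1 was lower, the cystine carrier Slc7a11 (-1.36, SE 0.58). Membrane glutathione transferases had 0 of 4 past it. Mgst1 measured 5567 ± 3955 CPM (SD, n = 5) in wild-type and 4973 ± 976 (SD, n = 3) in het-labelled livers.

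Other conjugation enzymes had 4 of 16 higher (25.0%), where 10.3% of all genes were higher and 5.43% lower. Acsm1, which activates acids for glycine conjugation, had 0.75 (SE 0.19, DESeq2 adjusted p = 0.0446). Nat8 had 1.24 (SE 0.42), or 2.29 and 0.74 against wild-type libraries 1 and 3 and libraries 2, 4 and 5, and Nat8f1 had 0.58 (SE 0.19). Of the efflux pumps for conjugates, 1 of 7 (14.3%) was higher, Abcc6 (0.62, SE 0.25), a share near that of all genes. Lower was 1 (14.3%), Abcc4 (-1.06, SE 0.30, DESeq2 adjusted p = 0.047). Of the epoxide hydrolases, 1 of 2 was higher, Ephx2 (0.69, SE 0.24).

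Nuclear receptors and other regulators of these enzymes had 6 of 10 higher and 0 lower, with a median log2 fold change of 0.46, beside the 10.3% and the median of 0.00 for all genes. Nr1i3, the receptor CAR, known for induction of Ugt1a1, measured 72.3 ± 35.2 CPM (SD, n = 5) in wild-type and 194 ± 51.2 (SD, n = 3) in het-labelled livers, a log2 fold change of 1.43 (SE 0.38, unadjusted p = 0.00473, DESeq2 adjusted p = 0.0563). Ppara had 0.73 (SE 0.22) and Rxra 0.70 (SE 0.24).

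In RefSeq, 56 of the 64 genes matched, with 67 promoter windows of 250 bases. TATAAA stood in 13 of the 67 (19.4%) and in 12.4% of all 32851 windows, counted on both strands. Counted the same way, AGGTCA stood in 16.4% against 14.0%, and the forkhead letters TGTTTAC in 5.97% against 3.17%. The antioxidant response core TGACNNNGC stood in 4.48% against 10.2%, the dioxin response core GCGTG in 16.4% against 28.2%, TTCNNNGAA in 5.97% against 7.02%, and the E-box CACGTG in 0.0% against 6.02%. Neighbouring members share ancestry and sequence, so these windows are not independent of each other.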

How the data were processed

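Livers were kept in RNAlater, the Zymo Quick-RNA Miniprep kit gave the RNA, which was then DNase-treated, and libraries were made with KAPA mRNA HyperPrep, per the labels' protocols. The authors deposited raw counts per gene for 25078 genes, made with bcl2fastq 2.18.0.12, STAR and HTSeq on mm10, per the submitters' processing notes. They also deposited RPKM values and exon lengths. The annotation, the counting mode, the strand setting and which STAR and HTSeq versions ran were not given in the sources used here. Antisense and overlapping genes therefore cannot be separated.

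Groups follow the genotype label. Replicate numbers follow accession order. Replicates differed by more than sampling noise (chi-square per degree of freedom at least 22.9 among wild-type and 36.0 among het-labelled pairs). There were 0 unused sample columns. Genes were filtered with filterByExpr (minimum count 10, minimum total 15), which left 14438, scaled by TMM and tested on all 8 libraries with edgeR 4.0.16 (robust quasi-likelihood test, two-sided, Benjamini-Hochberg over all genes, threshold 0.05) in R 4.3.3. CPM values carry the TMM factors, which ran from 0.852 to 1.27. Shares are percentages of deposited counts with Wilson intervals, compared by exact permutation tests. Alternatives were DESeq2 1.42.0, limma 3.58.1 (voom, and log2 RPKM with pseudocounts of 0.1 and 1), RLE factors, library size alone, no robust estimation, other filters, each library left out, and the wild-type libraries split by Rpph1. Sequence sharing used 50-base words of GENCODE transcripts, and promoters came from RefSeq.

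On simulated data with the means and library sizes of 14438 genes, edgeR called 0, 12, 32 and 34 of 50 genes altered 1.5-, 2-, 3- and 4-fold at an adjusted p under 0.05, and 25, 38, 46 and 47 at an unadjusted one. Among 14106 unaltered genes, 4.85% had an unadjusted p under 0.05 and 6 were called at an adjusted one. The simulated counts were drawn independently around 1 mean per gene, without the 2 sets of wild-type libraries seen in the data. These rates therefore need not hold for the real libraries.

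Genes named are Ugt1a1, Sult5a1, Gstm3, members with an unadjusted p under 0.05 or without overlap, the 3 of highest RPKM per family, those at the filter's edge or below a summed count of 10, sex-biased members, the Ugt1 locus, and up to 4 genes of smallest p per related list, some of which are not reported here. Others, such as Sult1e1, Ugt3a2 and Gsta1, were named after their values were seen. The members and lists were chosen with earlier results of these data known.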

Additional observations from a re-analysis of the deposited data

Results flagged for a closer look

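Sult5a1 in wild-type library 4 measured 4.28 CPM, far from the other wild-type livers, which lay at 0.56 to 1.14 CPM. The gap to the nearest of them was 0.843 of the group's range, above Dixon's 95% critical value of 0.71 for 5 samples. This was the 1 such case among 58 genes examined in the wild-type group, and chance flags about 1 in 20 groups. Without that library the log2 fold change of Sult5a1 was 3.70 in place of 2.87.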

How the results depend on the processing

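No paired analysis was possible because the replicate numbers follow accession order and the labels pair no livers across genotypes. The cause of the changes below was not tested. Over all genes, calls at an adjusted p under 0.05 numbered 0 in the edgeR fit of all libraries, 176 with DESeq2, 2632 with wild-type libraries 1 and 3 left out and 21 with libraries 2, 4 and 5 left out, and 0 to 0 with single libraries left out. Conjugation genes higher at an unadjusted p under 0.05 numbered 13, then 9 with library size alone (Gstm2, Gstm6, Gstp3 and Ugt1a5 lost), 26 with wild-type libraries 2, 4 and 5 left out, where 16.7% of all genes were higher in place of 10.3%, and 7 (without het-labelled library 3) to 14 with single libraries left out. Those lower numbered 1, then 2 each with DESeq2, library size alone and both RPKM pseudocounts, 9 with wild-type libraries 1 and 3 left out, 4 with libraries 2, 4 and 5 left out, and 1 to 3 with single libraries left out. Of the 14 genes past that level, 8 passed it under all 19 alternatives, namely Gsta2, Gstp1, Gstt3, Sult2a8, Sult5a1, Ugt1a1, Ugt1a6a and Ugt1a6b. Without het-labelled library 3, Gstm2, Gstm6, Gstp3, Gstt1, Sult2a7 and Ugt1a5 no longer passed it.

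Among the 58 genes followed, log2 fold changes that turned sign were those of genes not past it. Genes past it were picked on these same counts, so a turn of sign was unlikely for them from the start. Over all 47 tested conjugation genes, 6 turned sign without wild-type libraries 2, 4 and 5 and 10 without libraries 1 and 3. With library size alone Sult1a1 came to -0.02, Gusb to -0.06 and Papss1 to -0.03. With voom and both RPKM pseudocounts Ugp2 came to 0.11 and Mgst1 to 0.15. Without wild-type libraries 1 and 3, Gstm3 came to 0.03, Ugt2b1 to -0.20, Sult1a1 to -0.10 and Alox5ap to 0.34. Without libraries 2, 4 and 5, Ugt2b5 came to 0.89, Ugt2b36 to 1.11, Sult1d1 to 0.56, Ugp2 to 1.02, Mgst3 to 0.30 and Mgst1 to 1.34. With single libraries left out, Gstm3 ranged from -0.59 to 0.08 (highest without het-labelled 1) and Ugt2b36 from -0.61 to 0.04 (without wild-type 5). Alox5ap ranged from -0.45 to 0.10, above 0 without het-labelled 1 or 3 or wild-type 1 or 3. Ugp2 ranged from -0.34 to 0.27 and Mgst1 from -0.45 to 0.24, with values of 0.00 to 0.27 without wild-type 4 or 5.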
